A study of Mus musculus with 24 samples.

Results

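Genes that mark heart atria were measured in left ventricular RNA of 24 mice. The members were the 8 genes Myl4, Myl7, Sln, Bmp10, Dkk3, Stard10, Clu and Pam, chosen by name out of 36413 gene names on the array. All 8 were found, each with 1 probe printed as 1 spot, and all 8 passed the filter on dim probes. The arrays were 1-colour Agilent arrays, 1 for each male mouse, in 4 groups of 6. CON mice were controls and mG4H mice carried an inducible transgene for the glucose transporter GLUT4 that is expressed in cardiomyocytes. VEH mice received citrate buffer. STZ mice received streptozotocin, which destroys the insulin-producing cells of the pancreas, at 55 mg per kg on each of 5 days. The groups were therefore CON_VEH, mG4H_VEH, CON_STZ and mG4H_STZ. The labels place the start of transgene induction 2 weeks after STZ and give it another 2 weeks, and they do not give the animals' ages or say whether CON mice also received the inducing agent. They state that the right ventricle was cut away, and do not mention the atria. Siblings were placed in different groups, but the labels do not say which mice they were.

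Atrial and ventricular muscle carry different sets of contractile and secreted proteins. In the adult mouse the atrial light chains of myosin, an atrial inhibitor of the calcium pump and a bone morphogenetic protein of the atrial wall are normally made in atrial muscle and hardly at all in ventricular muscle. Other genes of the set are enriched in atria but are also made by many other cells. RNA of an atrial remnant in a ventricle sample would carry these genes together, and the members were followed across arrays with that question. In whole tissue, a difference in the number of cells of a type and a difference in RNA per cell cannot be told apart.

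Myl7 encodes the regulatory light chain of atrial myosin, and its signal separated the arrays most widely. It was read by a probe at chr11:5798186-5798435 on the minus strand of mm9, the build the files use. The 60 bases of the probe span 250 bases of the genome, so it lies across a splice junction in the transcript. The probe is shown because most of what follows turns on its signal.
Myl7 probe: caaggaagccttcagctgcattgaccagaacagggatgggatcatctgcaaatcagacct

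The proximal promoters of the 2 atrial light chain genes are shown because these genes were high on the same arrays. Each sequence holds the 250 bases before the RefSeq start site in build GRCm38.p6, at chr11:104550413-104550662 on the plus strand for Myl4 and chr11:5898783-5899032 on the minus strand for Myl7. Capitals mark a GATA motif (AGATAA or TGATAA, on either strand).
Myl4 promoter: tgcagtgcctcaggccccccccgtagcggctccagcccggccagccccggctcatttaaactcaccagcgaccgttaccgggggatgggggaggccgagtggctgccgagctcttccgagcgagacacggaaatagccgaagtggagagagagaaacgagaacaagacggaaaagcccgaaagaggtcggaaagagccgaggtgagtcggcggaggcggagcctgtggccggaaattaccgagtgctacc
Myl7 promoter: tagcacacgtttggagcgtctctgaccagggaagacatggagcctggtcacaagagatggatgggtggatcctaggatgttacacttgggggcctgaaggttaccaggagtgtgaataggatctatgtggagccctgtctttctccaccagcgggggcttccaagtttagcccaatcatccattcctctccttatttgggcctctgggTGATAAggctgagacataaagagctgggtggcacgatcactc

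The Myl7 window held 1 GATA motif, which began 42 bases before the start, and the Myl4 window held 0. Of 32851 RefSeq promoter windows of this length, 16.6% held a GATA motif. The T-box motif AGGTGT, on either strand, was in 0 of the 2 windows and in 11.8% of all. The MEF2 motif, on either strand, was also in 0 of the 2, against 2.92% of all. The E-box CANNTG, which covers both strands by its symmetry, occurred in the Myl7 window 1 time, beginning 168 bases before the start, and in the Myl4 window 0 times, against 66.2% of all windows. Promoter sequences were found for 5 of the 8 members, and Sln, Dkk3 and Clu were not matched.

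Levels are given as the log2 processed signal minus the log2 of the same array's 75th percentile, so 0 is the array's 75th percentile. Between genes these levels are not comparable, because probes differ in how they hybridise. The 75th percentile lay between 370 and 583 per array, and 58.5% to 76.3% of gene spots were well above background. Slides 1 to 3 held all 4 groups, while slide 4, read on the other scan day, held 1 array each of CON_VEH and mG4H_VEH. No 2 arrays were duplicates: the highest correlation between any 2 was 0.9945 over genes. The labelled tissue carried its own markers, with Myl2, the ventricular regulatory light chain, at 8.70 to 9.38 on all arrays. Slc2a4, the mouse gene for GLUT4, overlapped between the genotypes under both treatments: it was between 6.33 and 6.61 in mG4H_VEH against 6.51 and 6.92 in CON_VEH, and between 5.66 and 6.94 in mG4H_STZ against 5.60 and 6.42 in CON_STZ. The medians were 6.57 against 6.76 under VEH and 6.37 against 6.25 under STZ. Whether its probe can read the transgene is not given in the sources used here, so the genotype rests on the labels alone, and group names below are those labels. As the number of arrays limits the precision, an effect was called only at an adjusted p under 0.05 (limma, Benjamini-Hochberg over 28235 genes).

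On the contractile members, 3 arrays stood apart, all with mG4H labels. These were replicates 5 and 6 of mG4H_VEH and replicate 4 of mG4H_STZ. They were noticed from the members' own signals, so what follows on them describes these arrays and carries no test. The group comparisons and pairs are given with and without them.

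Myl7 was at 0.89 and 1.05 on replicates 5 and 6 of mG4H_VEH and at -0.52 on replicate 4 of mG4H_STZ. On the other 21 arrays it lay between -7.45 and -2.72, with a median of -5.18. These 3 arrays were thus above all others by at least 2.20 on the log2 scale. Myl7 was well above background on 11 of the 24 arrays, 3 in CON_VEH, 3 in mG4H_VEH, 3 in CON_STZ and 2 in mG4H_STZ, so its values on the others follow the background. In CON_VEH it was between -5.67 and -2.72, with a median of -5.01, and in CON_STZ between -5.96 and -3.25, with a median of -5.02. The 2 CON groups overlapped over nearly their whole range.

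Myl4 encodes the essential light chain of atrial myosin and was well above background on all arrays, with a probe at chr11:104448441-104448500 in mm9. In CON_VEH it ranged from 1.53 to 2.00 with a median of 1.80, and in CON_STZ from 1.31 to 2.03 with a median of 1.69. In mG4H_VEH it ranged from 2.00 to 5.72 with a median of 2.25, and in mG4H_STZ from 1.72 to 3.82 with a median of 2.07. The 3 arrays that stood apart had 5.28, 5.72 and 3.82, against 2.40 for the highest of the others. The 6 mG4H_VEH arrays were all above the 6 CON_VEH arrays, but the lowest of the former, at 2.002, and the highest of the latter, at 1.997, nearly touched. Over all genes, 0.397% had every mG4H_VEH array above every CON_VEH array.

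Sln encodes sarcolipin, an inhibitor of the sarcoplasmic calcium pump, read by a probe at chr9:53701574-53701633. It was at 3.65 and 4.21 on replicates 5 and 6 of mG4H_VEH and at 2.58 on replicate 4 of mG4H_STZ. The rest of the arrays spread over 3.40 log2 units, from -1.09 to 2.31. Sln was also high on 2 arrays where Myl4 was not: replicate 2 of CON_STZ had 2.31 and replicate 3 had 1.72, while Myl4 was 1.99 and 2.03 there.

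**Figure D1:**
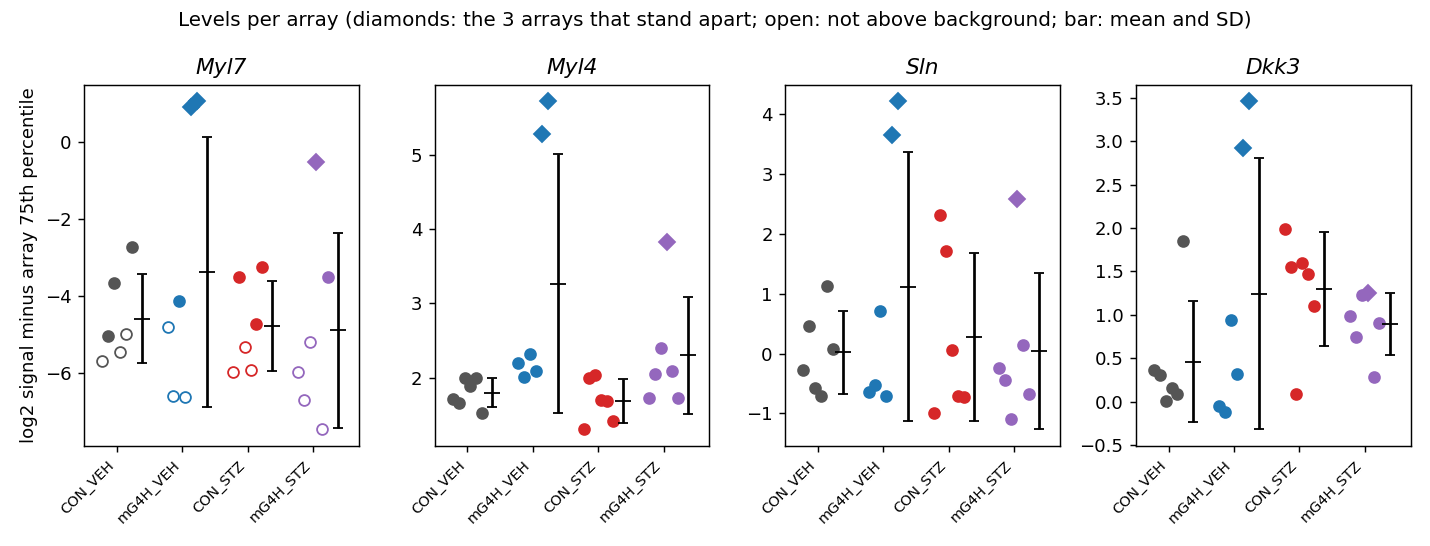
Levels of Myl7, Myl4, Sln and Dkk3 on each array, by group (y axis: log2 signal minus the array's 75th percentile). Circles are arrays, diamonds are the 3 arrays that stood apart, open symbols were not well above background, and bars give the mean and SD of 6 arrays. Diamonds are the highest points in the panels of Myl7, Myl4 and Sln, at 1.05, 5.72 and 4.21.

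Dkk3 encodes a secreted relative of the Wnt inhibitors of the Dickkopf family, read by a probe at chr7:119259556-119259615. It was at 2.92 and 3.46 on replicates 5 and 6 of mG4H_VEH, the 2 highest values. On replicate 4 of mG4H_STZ it was at 1.25, within the range of the other 21 arrays, which ran from -0.12 to 1.99. In CON_VEH, replicate 6 had 1.85 while the other 5 arrays lay between 0.00 and 0.37. Dkk3 thus shared 2 of the 3 arrays with the contractile members.

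Bmp10, a ligand of the bone morphogenetic protein family made by the atrial wall and read by a probe at chr6:87384427-87384486, was low and did not rise on those arrays. It was at -3.28 and -3.83 on replicates 5 and 6 of mG4H_VEH and at -2.57 on replicate 4 of mG4H_STZ, against -3.97 to -2.34 on the other arrays. Its variation followed the slides, with means of -3.43, -3.18, -2.54 and -3.32 on slides 1 to 4. Slides took 57.2% of its variance within groups, against a median of 35.4% over all genes. The 5 genes with the most similar pattern over 24 arrays were Tulp1, Olfr799, Olfr609, Cldn14 and Slc19a3, with Pearson r of 0.941, 0.939, 0.937, 0.934 and 0.933. Whether this low signal came from the Bmp10 transcript was not tested, so its lack of a rise is only a description of the probe.

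Stard10 encodes a lipid transfer protein, Clu the chaperone clusterin and Pam the enzyme that amidates peptide hormones, also a membrane protein of atrial granules. Their probes lie at chr7:108470512-108491035, where the long span means that it crosses a splice junction, at chr14:66600325-66600382 and at chr1:99718052-99718111. Stard10 lay between 0.72 and 1.52, Clu between 7.72 and 8.58 and Pam between 1.93 and 3.41 over all arrays. Clu was at 7.72 and 7.75 on replicates 5 and 6 of mG4H_VEH, the 2 lowest of the 24 values. Stard10 and Pam were inside the range of the other arrays on all 3.

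**Figure D2:**
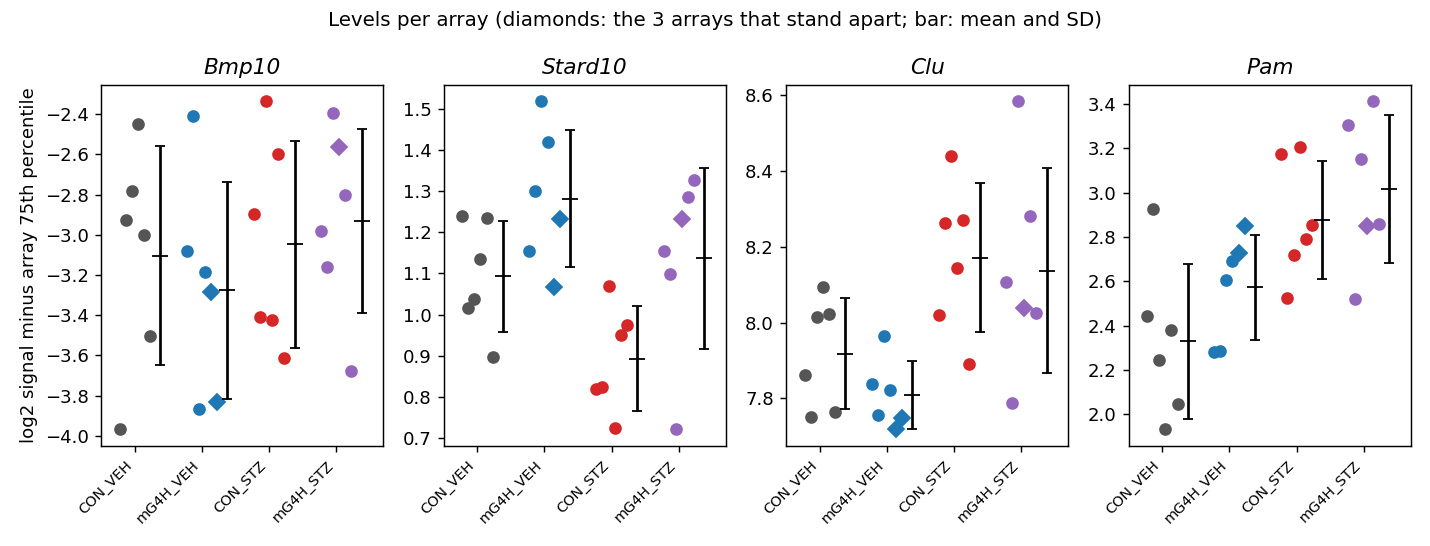
Levels of Bmp10, Stard10, Clu and Pam on each array, by group (y axis: log2 signal minus the array's 75th percentile). Circles are arrays, diamonds the 3 arrays that stood apart, and bars give the mean and SD of 6 arrays. Diamonds lie within or below the range of the other 21 arrays: Clu has its lowest value, 7.72, on one of them.

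Of the other atrial genes, 12 of 14 listed were measured, and 1 of them, Mybphl, was highest on the same 3 arrays. Mybphl encodes a myosin-binding protein of atrial and conduction muscle, and was at -2.77, -2.10 and -2.87 there, against -3.28 at most elsewhere. Nppa, the precursor of atrial natriuretic peptide, was at 4.61, 5.00 and 7.12, inside its range of 4.02 to 9.01. The potassium channel genes Kcnj3 and Kcnj5, and the atrial regulator Nr2f2, had no such pattern. Over all 27693 genes with complete values, 8 had these 3 arrays as their 3 highest, or 0.0289%, and 3 members and Mybphl were among the 8. The arrays were singled out on the members, so nothing is read from this share.

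Myocyte genes were looked at on those arrays in the same way. Of 12 ventricular genes and 12 genes of heart muscle in every chamber, 0 had the 3 arrays as the 3 highest. Myl2 was at 9.11, 8.83 and 8.70, against 8.74 to 9.38 elsewhere, and Myh6, the alpha myosin heavy chain, was at 8.90, 8.996 and 8.80. Genes of skeletal muscle, pacemaker cells, fat, blood, fibroblasts, smooth muscle and endothelium also gave 0 genes with the 3 arrays as highest. The share over all genes was 0.0289%, so nothing is read from 0 in lists this short. The count also misses genes high on only 2 of these arrays. Cacna1g of the pacemaker list ranked 4 and 1 of 24 on replicates 5 and 6 of mG4H_VEH, and 19 on the mG4H_STZ array. In the mesothelium list, the summed level was 2.73 and 2.81 on the mG4H_VEH arrays and 3.96 on the mG4H_STZ array, where it was the highest of 24, against 2.73 to 3.81 on the others. The summed level of the skeletal list on the same mG4H_STZ array was 7.89, also the highest of 24. The part of these markers in the members' levels was not tested.

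The question whether the members vary together was put to 28 pairs, with levels taken relative to the group mean. Over 24 arrays, 4 pairs passed by Pearson correlation (permutation test, two-sided, adjusted p under 0.05) and 0 by Spearman's rho, a count that rose to 7 under median scaling: Myl4 with Myl7, Myl4 with Sln, Myl7 with Sln and Myl7 with Dkk3. The arrays formed separate clusters on these genes, so no pooled coefficient is given for these pairs as a result. The median r of the 28 pairs was -0.028, against 0.032 over all pairs of genes.

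Over the 21 other arrays no pair of contractile members passed. The 3 arrays left out were noticed because these members were high on them together. The lack of a pass on the rest therefore does not answer whether the members vary together. Myl4 and Myl7 had r = -0.028 (rho = 0.019, permutation test, adjusted p = 0.943 and 0.942). For Myl7 with Sln r was 0.089 (rho = 0.070, permutation test, adjusted p = 0.941 and 0.942). Myl7 was well above background on only 11 of all 24 arrays, among them the 3 that stood apart. On most of the 21 its values thus follow the background, and its pairs do not settle whether the members moved together. For Myl4 with Sln, both well above background on all arrays, r was 0.490 (rho = 0.383, permutation test, adjusted p = 0.364 and 0.579). The 1 pair that passed was Myl4 with Clu, with r = 0.763 and rho = 0.790 (permutation test, adjusted p = 0.0305 and 0.0126). Without the 2 arrays farthest from the median this r was 0.670 (permutation test, adjusted p = 0.123). With slide taken out as well it was 0.646 (permutation test, adjusted p = 0.324), so the relation did not pass there. The relation was not particular to atrial genes. Over the same 21 arrays, Myl2, the ventricular light chain, had r = 0.705 with Myl4 and r = 0.741 with Clu, without a test.

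**Figure D3:**
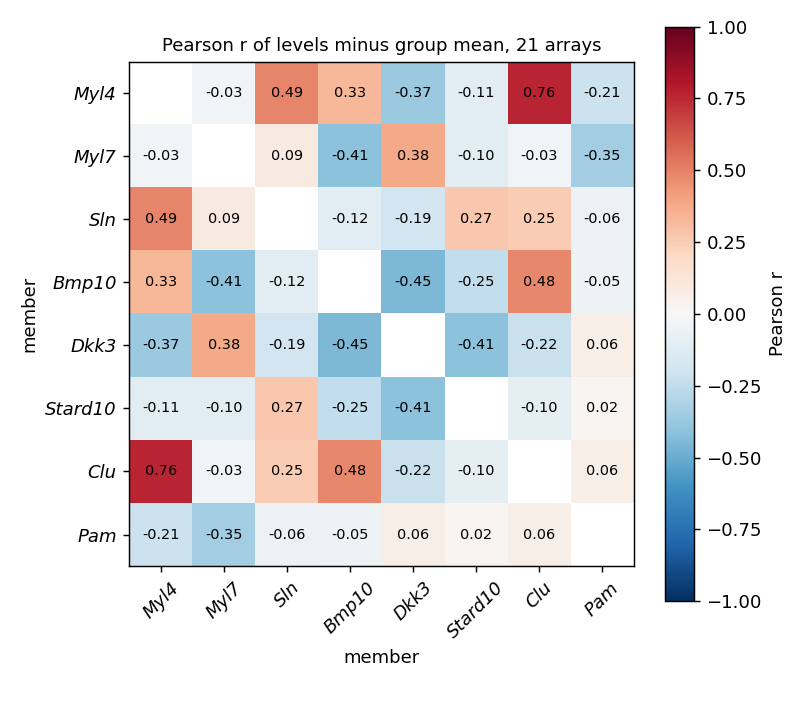
Pearson r between the levels of each pair of members, minus the group mean, over the 21 arrays that did not stand apart. Rows and columns are the 8 members and colour runs from -1 to 1. The cell of Myl4 and Clu, at 0.76, has the highest value, while Myl4 with Myl7 is at -0.03.

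By likeness over 24 arrays, which for these members includes the separate clusters, the genes nearest to the mean of Myl4, Myl7 and Sln were Fmod, Rspo3, Comp, Tceal3 and Cacna2d2, at r of 0.857, 0.796, 0.795, 0.776 and 0.740 among 15182 genes. Fmod encodes fibromodulin and Comp cartilage oligomeric matrix protein, both matrix proteins, and Rspo3 a secreted enhancer of Wnt signalling. Over the 21 other arrays the same r were 0.565, 0.448, 0.240, 0.429 and 0.067. That ranking leaves out the averaged members themselves. Taken singly over 24 arrays, Myl4 had Sln and Myl7 at ranks 1 and 2 of 15184 genes. Sln had Myl4 and Myl7 at ranks 1 and 2, and Myl7 had Myl4 at rank 5, behind Fmod, Rspo3, Tceal3 and Comp. For Myl4, Myl7 and Sln, Mybphl had the ranks 10, 23 and 11, and Bmp10 the ranks 10248, 13087 and 13197. These ranks too include the separate clusters. For Dkk3 the nearest genes were Scara3, Comp, Abi3bp, Fmod and Ltbp2, at 0.899, 0.899, 0.853, 0.836 and 0.833, and at 0.790, 0.700, 0.718, 0.656 and 0.839 over the 21 arrays. The nearest genes to Clu were Nosip, Rps14, Zfpl1, Cdk5rap3 and Spcs2, to Pam Foxn2, Hnrnpl, Lgr4, Kdm3b and Gpbp1l1, and to Stard10 Shprh, Zfp275, Ddx51, Mycbpap and Scgb1c1. Points share slides and scaling, and these likenesses are descriptions.

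Myl7 also had a spread among the 21 arrays that followed some genes of the mesothelium, the cell sheet over the heart's surface. Upk3b, an uroplakin that marks mesothelium, fell into separate clusters: on 6 arrays it lay between -1.97 and -0.78, and on the other 15 between -7.43 and -3.56. The 6 arrays were replicates 3 and 6 of CON_VEH, replicate 3 of mG4H_VEH, replicates 2 and 6 of CON_STZ and replicate 6 of mG4H_STZ. Myl7 was between -4.13 and -2.72 on these 6, all above background, and between -7.45 and -4.72 on the 15, of which 2 were above background. Myl4, in contrast, lay between 1.41 and 2.31 on the 6 and between 1.31 and 2.40 on the 15. Within the clusters r between Myl7 and Upk3b was 0.941 over the 6 arrays and 0.436 over the 15.

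Of 10 mesothelium genes, 6 correlated with Myl7 over the 21 arrays: Upk1b, Krt19, Upk3b, Lrrn4, Krt8 and Msln. Their permutation test, adjusted over 40 pairs of 4 members with 10 genes, gave adjusted p of 0.0002 to 0.0014 for r and 0.0012 to 0.00987 for rho. Krt8, Upk1b, Lrrn4 and Upk3b were well above background on only 6, 7, 8 and 13 of the 24 arrays, Krt19 and Msln on all. The rest of the list, Wt1, Krt18, Tcf21 and Aldh1a2, was above background on all 24 arrays. With Myl7 these genes did not pass for r (permutation test, adjusted p = 0.532, 0.113, 0.972 and 0.204) or for rho, and Wt1 had a negative r. In the same family Dkk3 passed with Aldh1a2, a retinoic acid enzyme, at r = 0.679 and rho = 0.668 (permutation test, adjusted p = 0.0064 and 0.0165), and with Lrrn4 by r alone (adjusted p = 0.0455, and 0.223 for rho). The Myl7 tests span both clusters of arrays, so their pooled coefficients are not printed. Their adjusted p come from those coefficients, in tests added after the members' values had been seen. Whether they reflect more than the split into clusters was not tested. Of the 12 other atrial genes, 0 passed with Myl7 over the same arrays (permutation test), where Mybphl had r = 0.299 and Nppa r = 0.069. Among the 48 pairs of 4 members with these 12 genes, Myl4 with Gja5, a gap junction gene, had r = -0.713 and rho = -0.762 (permutation test, adjusted p = 0.0408 and 0.0293), so they moved in opposite directions. Without the 2 farthest arrays this r was -0.640. Within slides 1 to 3, over 7, 6 and 6 arrays and with group means not removed, r was -0.381, -0.506 and -0.843. Dkk3 with Nppa passed by rho alone, at 0.665 (permutation test, adjusted p = 0.0408, and 0.0758 for r = 0.521). Msln, the gene of mesothelin, and Upk3b were at -2.30 and -4.97 on replicate 5 of mG4H_VEH and at -2.57 and -5.64 on replicate 6, which are low values. On replicate 4 of mG4H_STZ they were at 1.57 and -0.09, the highest of the 24 for both. Sln lay between -0.73 and 2.31 on the 6 arrays with high Upk3b and between -1.09 and 1.72 on the 15.

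**Figure D4:**
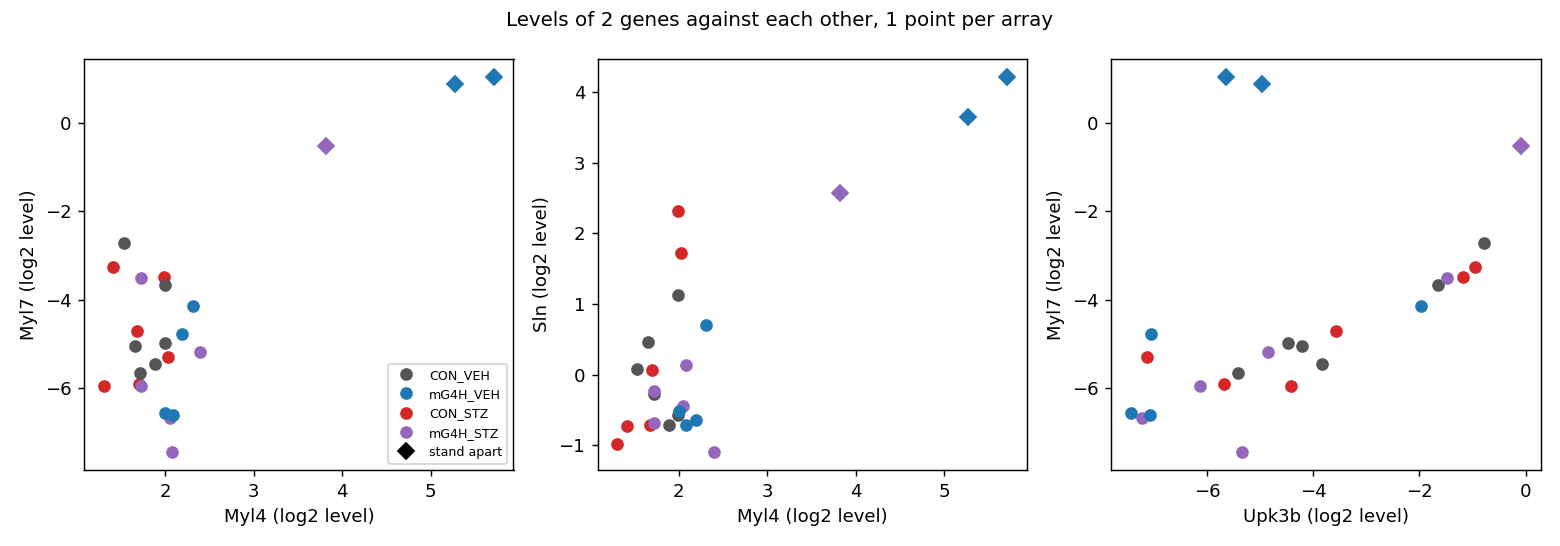
Levels of Myl7 against Myl4, Sln against Myl4 and Myl7 against Upk3b, 1 point per array and both axes in log2 level. Colours are groups and diamonds the 3 arrays that stood apart. In the right panel, 2 diamonds sit at high Myl7 and low Upk3b, at -5.64 and -4.97, and the third at -0.09.

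The group comparisons asked whether STZ or the transgene changed the members. In every comparison 0 of the 8 members passed limma's test. The share of all genes called was 3.96% for STZ in CON, 0.266% for STZ in mG4H, 0.0815% for mG4H under VEH, 0.0106% for mG4H under STZ and 0% for the interaction. With 21 arrays 0 members passed either, and the shares were 2.88%, 0%, 0.0319%, 0.00708% and 0%. The 75 calls for STZ in mG4H fell to 0 and the 23 for mG4H under VEH to 9. Leaving out the 3 arrays also cut mG4H_VEH to 4 arrays and mG4H_STZ to 5, which lowers the precision. How much of the fall came from the smaller groups was not tested. At an unadjusted p under 0.05, 2, 2, 1, 1 and 0 members passed, against 4026, 3955, 811, 1003 and 501 of 28235 genes. The comparisons share groups, so they are given side by side.

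Myl4 was 1.47 ± 0.54 (SE) higher on the arrays labelled mG4H_VEH than on those labelled CON_VEH on the log2 scale, with means of 3.26 ± 1.74 (SD, n = 6) and 1.80 ± 0.19 (limma, adjusted p = 1). Without the 3 arrays the difference was 0.35 ± 0.16 (limma, adjusted p = 1). Myl7 differed by 1.23 ± 1.27 in that comparison and by -0.94 ± 0.78 without them. Sln differed by 1.097 ± 0.84, and by -0.31 ± 0.57 without them. Dkk3 differed by 0.78 ± 0.52, and by -0.19 ± 0.36 without them. Leaving out 2 of 6 mG4H_VEH arrays thus turned the sign for 3 members and lowered Myl4's difference from 1.47 to 0.35.

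After STZ, in mG4H mice, Myl4 differed by -0.96 ± 0.54, Myl7 by -1.52 ± 1.27 and Sln by -1.07 ± 0.84 (limma, adjusted p = 0.446, 0.688 and 0.654). Without the 3 arrays they differed by -0.15 ± 0.16, -0.23 ± 0.81 and -0.17 ± 0.59. In CON mice the differences after STZ were -0.11 ± 0.54, -0.18 ± 1.27 and 0.26 ± 0.84. Dkk3 differed by 0.84 ± 0.52 after STZ in CON (limma, adjusted p = 0.558) and by 0.84 ± 0.32 without the 3 arrays (adjusted p = 0.209).

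Pam came nearest to the threshold. In CON_VEH it was between 1.93 and 2.93 with a median of 2.31, and in CON_STZ between 2.52 and 3.21 with a median of 2.82. The difference after STZ was 0.55 ± 0.17 in CON (limma, adjusted p = 0.0804) and 0.44 ± 0.17 in mG4H (limma, adjusted p = 0.234). Under quantile normalization it passed in CON, at 0.56 (adjusted p = 0.0496), and also without replicate 2 of CON_VEH, at 0.67 (adjusted p = 0.0289). Clu differed by 0.25 ± 0.11 and 0.33 ± 0.11 after STZ (limma, adjusted p = 0.284 and 0.182). Stard10 differed by 0.24 ± 0.10 between the genotypes under STZ (limma, adjusted p = 1). For Bmp10 the differences between groups ran from -0.17 to 0.35, each with an SE of 0.29.

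**Figure D5:**
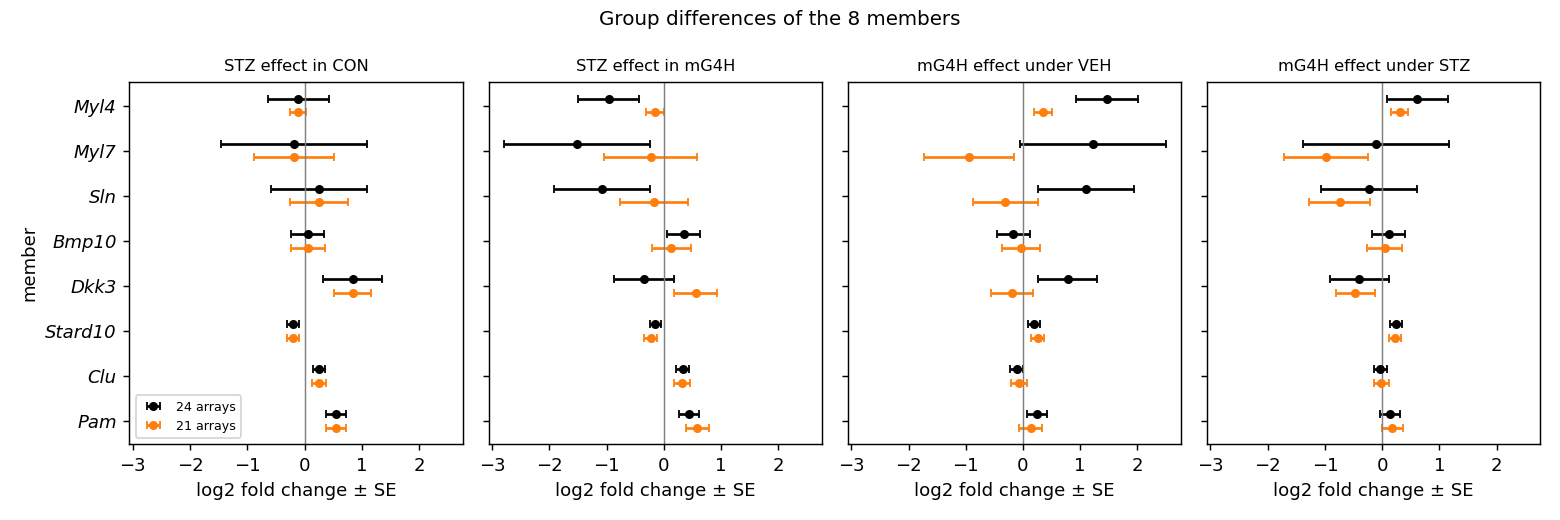
Log2 fold changes with SE of the 8 members in 4 comparisons, from all 24 arrays (black) and from 21 arrays (orange). Points are limma estimates and bars their SE. The bars of Myl7, Myl4 and Sln shrink without the 3 arrays, as in mG4H under VEH, where Myl4 goes from 1.47 to 0.35.

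Among the other atrial genes, Nppa rose after STZ, by 2.36 ± 0.43 in CON (limma, adjusted p = 0.00293) and by 2.00 ± 0.43 in mG4H (adjusted p = 0.0494). Without the 3 arrays the mG4H value was 1.95 ± 0.53 and did not pass (adjusted p = 0.278). Kcnj5, a subunit of the acetylcholine-gated potassium channel, fell by 0.38 in CON (adjusted p = 0.0157). In all 1 of 12 rose and 1 fell in CON, and 1 rose and 0 fell in mG4H; 0 passed between genotypes. Nppa did not follow the contractile members: on the 3 arrays it had the ranks 22, 19 and 6 of 24. Of the 12 ventricular genes, Myh7, the beta myosin heavy chain, rose by 1.68 ± 0.31 and 1.95 ± 0.31 after STZ (limma, adjusted p = 0.00329 and 0.00869). The mG4H value was 1.76 ± 0.37 without the 3 arrays and did not pass (adjusted p = 0.2). Kcnd2 and Gja1, a potassium channel and a gap junction protein, fell in CON by 1.002 and 0.50 (adjusted p = 0.00211 and 0.0053). Of the remaining lists, those of heart muscle in every chamber, skeletal muscle, smooth muscle, mesothelium and blood had 0 genes called in any comparison (limma). After STZ in CON, Cidea of the fat list rose by 1.04, Npr3 of the endocardium and endothelium list by 0.70, and Postn and Mfap5 of the fibroblast list by 1.26 and 0.84. Cacna1g, a calcium channel of the pacemaker list, fell after STZ by 1.36 in CON and by 1.24 in mG4H. Without the 3 arrays Cacna1g in mG4H, at -1.04 (limma, adjusted p = 0.293), and Postn and Mfap5 in CON (adjusted p = 0.0799 and 0.0522) did not pass. The part of these cell types in the members' levels was not tested.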

How the data were processed

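The authors scanned 24 1-colour arrays, and the deposited files hold scanner output of Agilent Feature Extraction 10.5.1.1, per the file headers. Agilent's program and limma are the tools listed per the submitters' processing notes. The unit is intensity: the deposited processed signal is a spot's background-subtracted intensity, not scaled between arrays. Here it was taken as log2 minus the log2 of the 75th percentile of 59305 gene spots. Outlier spots were left out. Probes well above background on at least 6 arrays were kept, 39766 of 55681, and the brightest probe stood for each of 28235 genes. All arrays were fitted with limma 3.58.1 (R 4.3.3), with a mean per group. Pairs of members were tested with 100000 permutations within groups, adjusted by Benjamini-Hochberg. Python 3.11.15 with numpy 2.4.6 and pandas 2.3.3 was used. Both tests were tested on simulated data. Lists held 112 genes, 101 of them measured.

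The members, lists and tests were chosen with earlier results of these data known, and the 3 arrays that stood apart, with the mesothelium correlations, after seeing the members' values. Named genes are the members, the 5 genes most like each, list genes past the threshold (at most 4 per list), the other atrial genes and Myl2, Myl3 and Myh7. Of the genes this rule names, 1 is not reported here. Samples labelled as separate mice were treated as replicates. Same-numbered arrays were not paired.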

Additional observations from a re-analysis of the deposited data

Results flagged for a closer look

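In groups of 6 arrays, a value was singled out when its gap to the nearest array exceeded 0.625 of the group's range (Dixon's test). Of 32 groups (8 members, 4 groups), 3 had such a value, where chance gives about 1 in 20 groups. Myl4 and Sln in mG4H_STZ were highest on replicate 4, at 3.82 and 2.58. Dkk3 in CON_VEH was highest on replicate 6, at 1.85. The test cannot see 2 high arrays in 1 group, so replicates 5 and 6 of mG4H_VEH were not singled out.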

How the results depend on the processing

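Of 707 member values under the alternatives other than single-array removals, 13 had the other sign and 1 newly passed the threshold. The count of members called after STZ in CON was 1 under quantile normalization and 0 to 1 when single arrays were left out. In the other 4 contrasts it was 0 throughout. The count of member pairs past the threshold was 9 under median scaling, 1 without the 3 arrays that stood apart, 0 with slide also taken out, 1 without slide 4, 0 without the 2 arrays farthest on the x axis and 0 when both were left out. When single arrays were left out it was 1 to 4. By Spearman's rho, 0 pairs passed in the reported setting, 7 under median scaling, 7 with the replicate block and 2 each under quantile normalization, normexp and slide residuals. Without the 3 arrays the values that reversed were Dkk3 after STZ in mG4H (0.56), Myl7, Sln and Dkk3 between genotypes under VEH (-0.94, -0.31 and -0.19), and the interactions of Stard10 and Pam (-0.0306 and 0.037). With array weights Myl7 and Bmp10 reversed after STZ in CON (0.29 and -0.14). Without slide 4 Myl7 reversed there (2.76e-05) and Bmp10 between genotypes under VEH (0.0102). With normexp Myl7 and Bmp10 reversed between genotypes under STZ (0.279 and -0.00721), and with median scaling the interaction of Stard10 did (-0.012). The cause was not tested.

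Leaving out single arrays turned the sign of Myl7 after STZ in CON (-0.49 to 0.19), Sln there (-0.15 to 0.51), Bmp10 there (-0.12 to 0.19), Dkk3 after STZ in mG4H (-0.62 to 0.10), Myl7, Sln and Clu between genotypes under STZ (-0.98 to 0.40, -0.74 to 0.18 and -0.123 to 0.036) and the interaction of Clu (-0.0137 to 0.145). The r of Myl4 with Myl7 was -0.028 without the 3 arrays, -0.077 with slide also taken out, -0.248 without the 2 farthest as well and -0.292 within CON_VEH, where Myl4 with Sln had -0.030 and Myl7 with Sln -0.031. With the replicate number as a replicate block, 0 members were called in each contrast and 6 pairs passed. Of 36 same-numbered pairs 16 correlated above 0.1, and 9 of 24 arrays correlated best with their own number. The median correlation was 0.00333 for the same number and -0.0217 for other numbers. These values do not settle whether the numbers pair samples. Signal over background limits Myl7, which was well above background on 11 arrays.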
